A study of Mus musculus with 3 samples.

Results

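The genes described here are 9 that are used to mark the base of the intestinal crypt and its WNT response: Lgr5, Lgr4, Olfm4, Ascl2, Smoc2, Axin2, Sox9, Slc12a2 and Cd44. They were chosen by name, with earlier results of these data known, and all 9 are among the 22100 gene symbols of the series. They were measured in single cells of the whole small intestine of mice, wild type in genotype and without treatment, in embryos timed from the mating plug (stages E15.5 and E17.5) and in pups a week after birth (P7). Each stage is 1 droplet library of 3′ ends, in which every captured RNA molecule carries a unique molecular identifier (UMI). There are no replicates and hence no test between stages. The sources used here do not give strain, sex or how many animals went into a library. Levels are in CPM, a gene's UMIs in 1000000 UMIs of the cells summed, and brackets hold 95% intervals that cover counting error only.

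In the adult intestine, stem cells sit at the bottom of the crypts, where WNT signals from neighbouring cells stabilise beta-catenin and switch on a set of target genes. R-spondins, secreted proteins that strengthen a WNT signal, are bound by the receptors Lgr5 and Lgr4, and Lgr5 is itself a WNT target. Before birth the mouse intestine has no mature crypts: dividing cells lie between the new villi, and crypts form in the weeks after birth. Several of the 9 genes are also used by connective tissue and muscle, so mesenchymal cells are given apart.

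Epithelial cells were those with 3 or more UMIs of Epcam, a surface protein of epithelia, after doublet removal. They numbered 1357, 1513 and 5990 in stage order, of 8447, 11598 and 8391 cells in the libraries, and their median depths were 21042, 15845 and 15734 UMIs. All 6 epithelial markers (Krt8, Krt18, Krt19, Cdh1, Cldn7, Vil1) were detected in them, the rarest in 86.1%, 79.4% and 73.2% of the cells. RNA of 6 mesenchymal markers summed to 126, 195 and 74.6 CPM in epithelial cells, against 6118, 12372 and 31208 CPM in mesenchymal cells. Mesenchymal cells had 2 or fewer Epcam UMIs and 10 or more UMIs of Col1a1, Col1a2 and Col3a1, which are among those 6 markers, and numbered 4882, 6017 and 1231. Cells with neuronal markers (792, 1038 and 169) served as a type taken to lack most of these genes, as a guide to free RNA. At E15.5 they held 22.9 CPM of Slc12a2, 12.7 of Lgr4, 9.83 of Sox9 and 6.36 of Axin2. Levels were lower for Smoc2 (1.85 CPM), Cd44 (1.73), Lgr5 (0.810), Ascl2 (0.116) and Olfm4 (0). The 6 epithelial markers summed to 28.3, 26.3 and 140 CPM in mesenchymal cells and 31.1, 33.7 and 296 CPM in neuronal cells in stage order. Epithelial cells held 3400, 4375 and 5178 CPM of them. Epithelial RNA in the other 2 kinds of cell was thus highest at P7. Whether RNA of a member in neuronal cells is free or their own was not tested. The sort on Epcam sets how many cells of each kind a library holds, and cells with RNA of pancreatic acinar enzymes made up 4.57%, 0% and 0.0835% of the epithelial cells. Because depth alters the chance of seeing a UMI, percentages of cells refer to cells thinned to 5000 UMIs each, which left 1335, 1458 and 5801 epithelial cells and 4441, 3865 and 522 mesenchymal cells.

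In GENCODE M21 on GRCm38, Lgr5 lies at chr10:115450311-115587780 on the minus strand, Lgr4 at chr2:109917647-110014257 on the plus strand and Cd44 at chr2:102811141-102901665 on the minus strand. Olfm4 lies at chr14:79984081-80023139, Smoc2 at chr17:14279506-14404790, Axin2 at chr11:108920349-108950783 and Sox9 at chr11:112782224-112787760, all on the plus strand, and Ascl2 at chr7:142966829-142969264 on the minus strand. Another annotated gene overlaps Lgr5, Smoc2, Axin2 and Cd44 on the opposite strand and Olfm4 on the same strand. None of these overlapping genes lies within 1 kb of the 3′ end of the gene it overlaps, where this kind of library reads. Neighbouring genes that do not overlap a member were not searched for.

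Upstream sequences were at hand for 5 of the 9 genes, from RefSeq on GRCm38.p6. Those of Olfm4, Ascl2 and Axin2 are printed because these genes, with Lgr5, were the ones at least 2-fold higher at P7 than at E17.5. Each shows the 250 bases before the RefSeq start, read 5′ to 3′ on the gene's own strand: chr14:80000052-80000301 on the plus strand for Olfm4, chr7:142969265-142969514 on the minus strand for Ascl2, and chr11:108920099-108920348 on the plus strand for Axin2. The Olfm4 stretch lies inside the gene as GENCODE draws it. Capitals mark an E-box (CANNTG, the kind of site bound by helix-loop-helix factors such as Ascl2) or TGGGAA (the core of sites bound by RBPJ, the DNA-binding factor of the Notch pathway). Both strands were searched, and no match of one overlaps a match of the other.
Olfm4: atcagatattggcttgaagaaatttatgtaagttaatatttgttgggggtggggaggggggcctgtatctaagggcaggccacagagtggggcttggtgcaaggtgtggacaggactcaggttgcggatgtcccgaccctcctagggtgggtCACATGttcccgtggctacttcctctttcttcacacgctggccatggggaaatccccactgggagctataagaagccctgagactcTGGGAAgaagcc
Ascl2: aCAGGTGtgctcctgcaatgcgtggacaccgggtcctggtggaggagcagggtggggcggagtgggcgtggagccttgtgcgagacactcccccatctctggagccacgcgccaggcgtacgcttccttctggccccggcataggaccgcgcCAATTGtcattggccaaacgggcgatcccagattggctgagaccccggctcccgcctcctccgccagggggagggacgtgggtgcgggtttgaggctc
Axin2: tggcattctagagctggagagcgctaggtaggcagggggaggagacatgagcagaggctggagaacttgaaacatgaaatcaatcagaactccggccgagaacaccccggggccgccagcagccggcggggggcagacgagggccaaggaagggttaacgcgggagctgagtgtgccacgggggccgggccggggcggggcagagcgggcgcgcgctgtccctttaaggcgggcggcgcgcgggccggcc
The Olfm4 stretch held 1 E-box and 1 TGGGAA, the Ascl2 stretch held 2 E-boxes, and the Axin2 stretch held neither. Among 32851 mouse promoters, 66.2% held an E-box and 21.6% held TGGGAA in their 250 bases. CTTTGA, the core of the site bound by the WNT factors TCF and LEF, was in 0 of the 5 member promoters and in 13.8% of all promoters, which says only that these letters are not in these windows.

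The R-spondin receptors took different courses. Lgr5 held 10.8 CPM (9.69–12.1), 18.5 CPM (16.8–20.3) and 51.9 CPM (50.5–53.4) of the epithelial RNA at E15.5, E17.5 and P7. The intervals are apart, and P7 is the highest stage. The log2 ratio was 0.77 (0.56–0.98) for E17.5 over E15.5 and 1.49 (1.35–1.63) for P7 over E17.5. A UMI of Lgr5 was found in 3.90%, 6.52% and 16.4% of thinned epithelial cells in stage order, against 0%, 0.223% and 2.53% of neuronal cells thinned to the same depth. The 0% was of 757 neuronal cells, and its interval reaches 0.486%. Without thinning, 12.2%, 14.6% and 24.2% of epithelial cells held a UMI of Lgr5. In sums of this kind, fewer cells of a type and less RNA per cell cannot be told apart. Lgr4, the more widely expressed receptor of the pair, held 69.7 CPM (66.8–72.8), 44.5 CPM (41.9–47.2) and 42.3 CPM (41.0–43.6) in stage order. It was highest at E15.5, and the other intervals overlap. Its log2 ratios for the same 2 steps were -0.65 (-0.75 to -0.54) and -0.07 (-0.17 to 0.02), and 29.4%, 19.2% and 19.4% of cells held it, against 5.15%, 5.92% and 8.23% of neuronal cells.

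**Figure D1:**
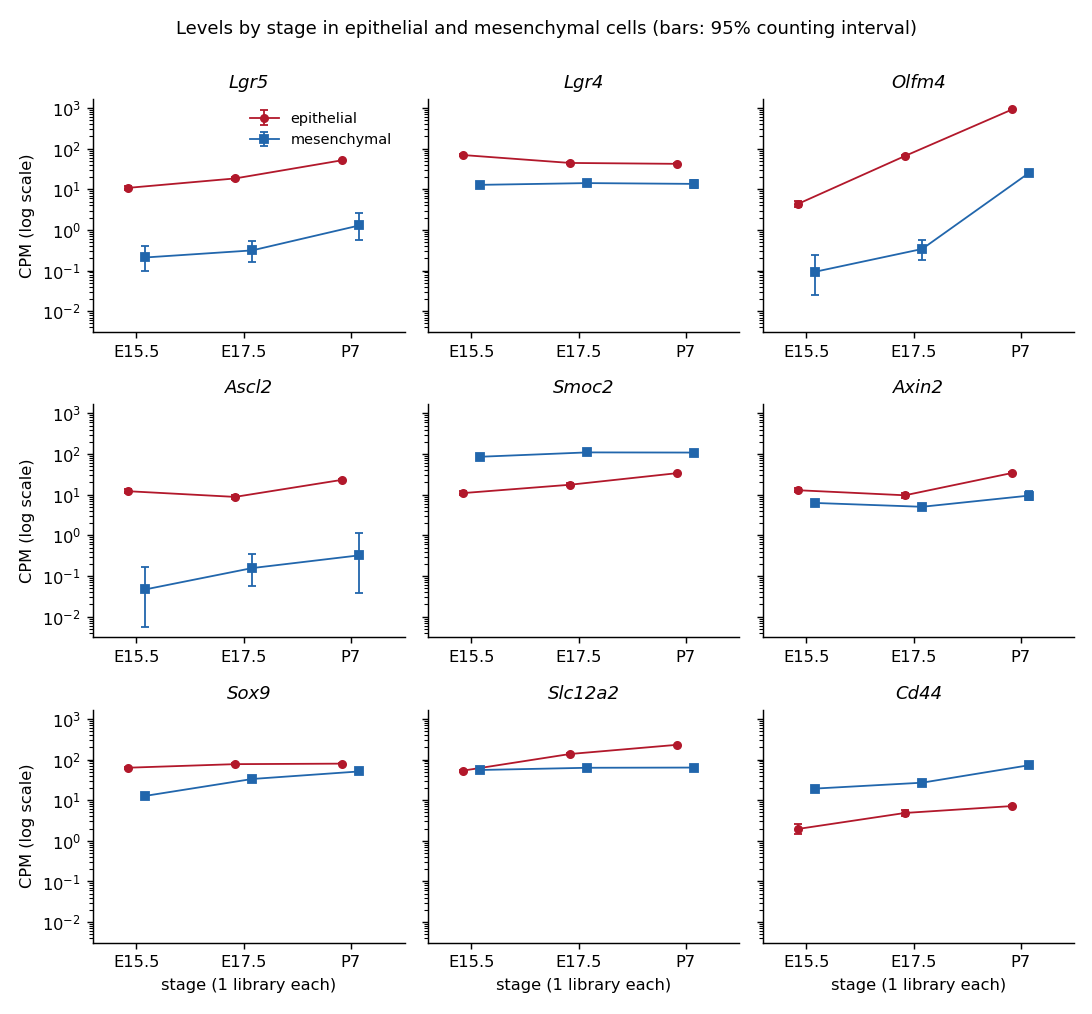
CPM of the 9 genes (log scale) at the 3 stages in epithelial cells (red circles) and mesenchymal cells (blue squares), 1 library per stage, with bars for the 95% Poisson interval. Olfm4 has the steepest course in epithelial cells (4.34, 66.0 and 922 CPM), while Smoc2 and Cd44 lie higher in mesenchymal cells at all 3 stages.

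Of the genes used to mark stem cells themselves, Olfm4 had the widest range. Olfm4, a secreted glycoprotein of the crypt base, held 4.34 CPM (3.63–5.15), 66.0 CPM (62.8–69.3) and 922 CPM (916–928) in stage order. It was thus 15.2-fold higher at E17.5 than at E15.5 and 14.0-fold higher at P7 than at E17.5, with the counting intervals of the 3 stages apart. Among the 131 Olfm4 UMIs at E15.5, 1 cell held 19, and the 36 cells with hormone granule RNA (Chga and Chgb) held 20 of them. Thinned epithelial cells with Olfm4 were 1.05%, 13.2% and 37.1%, against 0%, 0.223% and 8.23% of neuronal cells. Cells with 3 or more Olfm4 UMIs of 5000 made up 0.0749%, 4.25% and 27.6%. At P7 its RNA was concentrated in few cells: 1162 of the 5801 thinned cells had 10 or more UMIs and held 88.6% of the gene's total.

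Ascl2, a transcription factor that WNT signals induce and that switches on stem cell genes, was lowest at E17.5. Its level was 12.2 CPM (11.0–13.5), 8.85 CPM (7.71–10.1) and 23.3 CPM (22.4–24.3), so P7 again stood highest. The log2 ratio was -0.47 (-0.71 to -0.22) for E17.5 over E15.5 and 1.40 (1.20–1.60) for P7 over E17.5. Smoc2, a secreted matrix protein also expressed by Lgr5 cells, held 11.0 CPM (9.81–12.2), 17.6 CPM (16.0–19.3) and 34.0 CPM (32.8–35.2), each stage above the one before. Its step at P7 was 1.93-fold, and its counting interval takes in the 2-fold mark.

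Axin2, a scaffold of the complex that destroys beta-catenin and a feedback target used to read out WNT activity, had a course like that of Ascl2 over all epithelial cells. Epithelial cells held 12.9 CPM (11.7–14.3), 9.69 CPM (8.51–11.0) and 34.3 CPM (33.2–35.5) of it in stage order. The log2 ratio was -0.41 (-0.65 to -0.18) at the first step and 1.83 (1.64–2.02) at the second. Axin2 was seen in 6.14%, 3.50% and 13.7% of thinned epithelial cells, against 3.70%, 1.34% and 2.53% of neuronal cells.

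The other 3 genes are less restricted to stem cells. Sox9, a transcription factor of dividing crypt cells and of Paneth cells, held 62.8 CPM (60.0–65.7), 76.9 CPM (73.5–80.5) and 79.2 CPM (77.4–81.0). It was lowest at E15.5, and the intervals of the later stages overlap. Slc12a2, the cotransporter of sodium, potassium and chloride that loads chloride for secretion, held 53.1 CPM (50.6–55.8), 137 CPM (132–141) and 230 CPM (227–233), with no overlap. It was detected in 18.3%, 38.2% and 43.7% of thinned epithelial cells, against 9.91%, 8.83% and 13.3% of neuronal cells. Cd44, a hyaluronan receptor and WNT target, was sparse, with 1.95 CPM (1.49–2.52), 4.85 CPM (4.02–5.80) and 7.17 CPM (6.65–7.73). Epithelial cells with Cd44 were 0.749% (0.360–1.37), 2.40% (1.68–3.32) and 3.69% (3.22–4.21), against 0.528% (0.144–1.35), 1.01% (0.461–1.90) and 1.27% (2 of 158 cells) of neuronal cells. These paired intervals overlap, also at P7, where few neuronal cells hold the gene. In levels, neuronal cells held 1.73 CPM (0.971–2.86), 3.03 CPM (2.03–4.36) and 2.69 CPM (0.988–5.86) of Cd44, so the intervals overlap before birth and are apart at P7, where the epithelial level is higher.

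Set against a 2-fold mark, 3 of the 9 members were higher at E17.5 than at E15.5 (Olfm4, Slc12a2 and Cd44) and 0 were lower. Of 9651 genes with a mean of 5 CPM or more in those epithelial cells, 4.30% were at least 2-fold higher and 2.49% at least 2-fold lower. Cd44 itself lies under that mean, and 2 of the 8 members that meet it were higher. The log2 ratio of Cd44, 1.31 (0.85–1.79), was 0.70 when cells with 1 or more Epcam UMIs were taken, which leaves it short of the mark. From E17.5 on, 4 members were at least 2-fold higher at P7 (Lgr5, Olfm4, Ascl2 and Axin2) and 0 were lower, where 8.53% of 9692 genes were higher and 3.78% lower. The median log2 ratio of the 9 was 0.68 at the first step and 0.95 at the second, against -0.12 and 0.04 over genes whose UMIs reached 100 on each side. Rescaling to that median changed no member's direction at either step. Olfm4 was the 1 member past the mark at both steps.

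**Figure D2:**
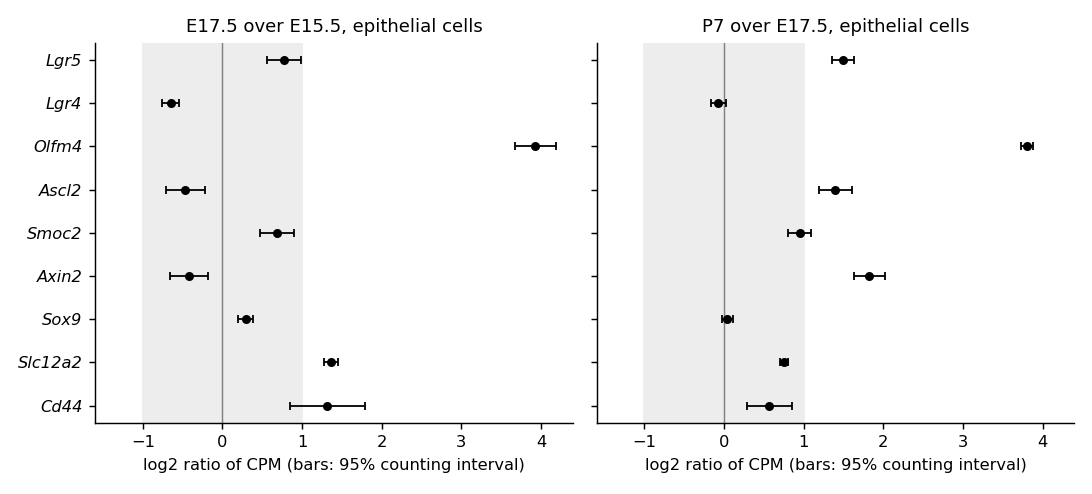
Log2 ratio of CPM in epithelial cells for E17.5 over E15.5 (left) and P7 over E17.5 (right), with bars for the 95% counting interval and grey for the range under 2-fold. Ascl2 and Axin2 lie below 0 on the left (-0.47 and -0.41) and above 1 on the right (1.40 and 1.83).

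Other WNT genes, from a list of 18 feedback genes and targets, were mostly sparse in the epithelium. At the first step 15 of them had more than 3 UMIs in a stage. Of these, 1 was at least 2-fold higher at E17.5 (Wif1, on 6 UMIs against 3, log2 ratio 1.29, -0.94 to 3.91) and 2 were lower, Notum and Ephb3. At the second step 16 were measured, 4 were at least 2-fold higher at P7 and 1, Tnfrsf19, was lower. All of these lie under a mean of 5 CPM: of the 7 listed genes that meet it at each step, as the genes behind the shares of 4.30% and 8.53% do, 0 passed 2-fold in either direction. Sp5, a transcription factor that WNT signals induce, held 8.41 CPM at P7 against 0.242 CPM at E17.5, where it had 6 UMIs. Notum, an enzyme that inactivates WNT proteins, held 2.52 CPM at P7 against 0.162 CPM at E17.5, on 4 UMIs. The others were the WNT inhibitor Apcdd1, with 3.04 CPM at P7 against 0.323 CPM at E17.5, and the ephrin receptor Ephb3, with 6.09 CPM against 0.929 CPM. Rnf43, a ligase that removes WNT receptors from the cell surface, held 20.1, 18.0 and 30.4 CPM in stage order. Of 5 WNT receptor and co-receptor genes and beta-catenin, Fzd7 passed the mark downward and then upward (4.50, 2.06 and 5.77 CPM), and the other 4 stayed within 2-fold at both steps. Fzd7 lies under a mean of 5 CPM at each step, which the other 4 meet. Of 10 other crypt genes, 3 passed it upward at E17.5 (Hopx, Aqp4 and Kcnq1) and 3 at P7 (Rgmb, Aqp4 and Kcnq1), where 4.30% and 8.53% of all genes did.

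The mesenchymal cells split the 9 genes into kinds. Lgr5, Olfm4 and Ascl2 were nearly absent there before birth. At E17.5 Lgr5 had 458 UMIs in the epithelial cells against 12 in the 6017 mesenchymal cells, and Ascl2 had 219 against 6. Smoc2 and Cd44 were the reverse. Smoc2 held 11.0, 17.6 and 34.0 CPM in epithelial cells and 85.9, 110 and 109 CPM in mesenchymal cells. At E15.5 it reached 184 CPM in mesenchymal cells with muscle RNA, against 52.9 CPM in those without. Cd44 held 1.95, 4.85 and 7.17 CPM in epithelial cells and 19.3, 26.9 and 72.6 CPM in mesenchymal cells. Its log2 ratios of epithelial over mesenchymal cells were -3.30, -2.47 and -3.34.

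Counted at 2-fold, 6 of the 9 were higher in epithelial than in mesenchymal cells at each stage, where 15.9%, 19.4% and 19.2% of all genes were higher. Smoc2 and Cd44 were lower at each stage, where 21.6%, 23.9% and 26.9% of genes were lower. These shares are over genes with a mean of 5 CPM or more, which 8, 8 and 9 members meet, 5, 5 and 6 of them on the higher side. The 6 were not the same genes throughout: Lgr5, Lgr4, Olfm4 and Ascl2 were among them at all 3 stages, and 3 genes moved in or out. The log2 ratios of epithelial over mesenchymal cells were 1.04, 0.94 and 1.85 for Axin2, 2.31, 1.21 and 0.64 for Sox9, and -0.06, 1.13 and 1.86 for Slc12a2. Slc12a2 held 53.1, 137 and 230 CPM in epithelial cells, and 55.3, 62.7 and 63.4 CPM in mesenchymal cells. Sox9 in mesenchymal cells held 12.7, 33.2 and 50.9 CPM. It lay mainly in those without muscle RNA, with 15.1, 41.3 and 62.7 CPM, against 5.67, 9.70 and 14.6 CPM in those with it. All genes shifted by a median log2 of -0.30 between the kinds of cell at P7.

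Between stages within the mesenchyme, 3 members exceeded their E15.5 level by 2-fold or more at E17.5 and 0 were lower, where 3.56% and 1.49% of genes with a mean of 5 CPM or more were. Of the 6 members that meet this mean, 1 was higher. Only Sox9, 2.61-fold higher, rests on many UMIs. Olfm4 had 13 UMIs at E17.5 against 4 at E15.5, and Ascl2 had 6 against 2, with a log2 ratio of 1.75 (-0.73 to 5.09). At P7, 4 members were at least 2-fold higher than at E17.5 and 0 were lower, where 9.20% and 2.46% of genes were. Of the 7 members with a mean of 5 CPM or more, 2 were higher, Cd44 and Olfm4. Cd44 was 2.70-fold higher, Lgr5 had 8 UMIs at P7 against 12 in the larger E17.5 sum, and Ascl2 had 2 against 6, with a log2 ratio of 1.04 (-2.30 to 3.53). The fourth was Olfm4, which is taken up next.

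Olfm4 stood at 25.7 CPM in mesenchymal cells at P7, on 159 UMIs, and neuronal cells held 17.9 CPM. Per UMI of Lgr5 there were 17.8 UMIs of Olfm4 (17.3–18.3) in epithelial cells and 19.9 (9.85–46.8) in mesenchymal cells, and the intervals overlap. Neuronal cells held 40 UMIs of Olfm4 to 10 of Lgr5, and the interval of that ratio (1.97–8.97) lies below both. Of those 10 Lgr5 UMIs, 4 lay in 1 cell, while the interval treats UMIs as independent. Whether the gap holds without that cell was not tested. Per UMI of Epcam there were 0.408 UMIs of Olfm4 (0.405–0.411) in epithelial cells, 0.612 (0.499–0.748) in mesenchymal cells and 0.833 (0.534–1.29) in neuronal cells. The epithelial interval is apart from the others. However, Epcam UMIs also define the groups: 3 or more in epithelial cells, 2 or fewer in mesenchymal and neuronal cells. The choice of cells thus shapes this ratio, and no conclusion is drawn from the gap. No mesenchymal cell held more than 3 Olfm4 UMIs, whereas an epithelial cell held up to 240. Its share of 8.81% of thinned mesenchymal cells is close to the 8.23% of neuronal cells. Whether this RNA is free or the cells' own was not tested.

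Co-detection asks whether the genes occur in the same cells. Of thinned epithelial cells with Lgr5, Olfm4 was also in 3 of 52 (5.77%, 1.21–15.9), 45 of 95 (47.4%, 37.0–57.9) and 868 of 949 (91.5%, 89.5–93.2) in stage order. Of cells without Lgr5 it was in 0.857%, 10.9% and 26.4%. The intervals of the 3 stages do not overlap among cells with Lgr5. Read the other way, Lgr5 was in 3 of 14, 45 of 193 and 868 of 2150 cells with Olfm4, which is 21.4%, 23.3% and 40.4%. At P7, 81 cells had Lgr5 without Olfm4 and 1282 had Olfm4 without Lgr5. A gene of low level is missed at this depth in many cells that hold its RNA.

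**Figure D3:**
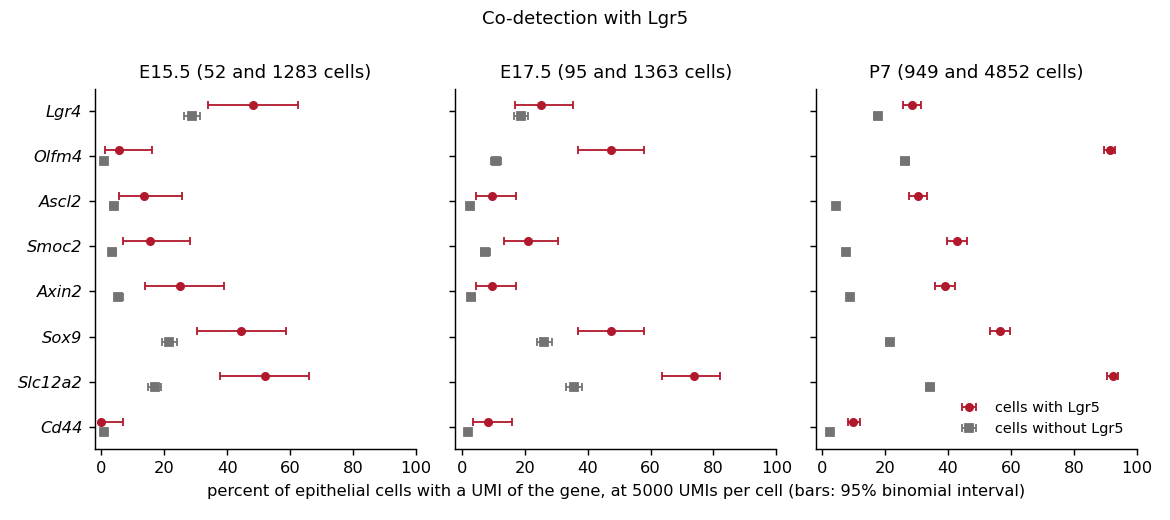
Percent of epithelial cells with a UMI of each other member, in cells with Lgr5 (red circles) and without it (grey squares), at the 3 stages, with cells thinned to 5000 UMIs and bars for the 95% binomial interval. At P7 Olfm4 and Slc12a2 reach 91.5% and 92.3% of cells with Lgr5, against 26.4% and 34.2% of cells without.

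Slc12a2 was the other near-constant companion of Lgr5 at P7, in 92.3% of cells with Lgr5 and 34.2% of cells without. Sox9 was in 56.5% of cells with Lgr5 and 21.5% without, Smoc2 in 42.8% and 7.63%, Axin2 in 38.9% and 8.72%, Ascl2 in 30.3% and 4.53%, and Cd44 in 9.91% and 2.47%. Lgr4 had the smallest ratio between the shares at P7, in 28.5% of cells with it and 17.6% of cells without. In the E15.5 library Axin2 was already in 25.0% of cells with Lgr5 and 5.38% of cells without, and Slc12a2 in 51.9% and 16.9%. Cd44 was in 0 of the 52 cells with Lgr5 there, which allows a share of up to 6.85%.

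Among all 36 pairs of members, the share of one gene was higher in cells with the other in 31, 33 and 36 pairs in stage order, and the intervals of the paired shares were apart in 13, 17 and 35. Pairs of other genes were not counted, so these numbers have no background beside them. The stages rest on 1335, 1458 and 5801 cells, and more cells give narrower intervals. Lgr5, Olfm4 and Ascl2 were found together in 1, 7 and 283 cells, and with Smoc2 and Axin2 as well in 0, 0 and 61 cells. At least 3 of the 9 genes were in 8.76%, 16.4% and 31.0% of epithelial cells, against 1.71%, 3.31% and 7.28% of mesenchymal cells and 0% of neuronal cells. Epithelial cells without any member were 45.0%, 36.7% and 35.6%, so P7 and E17.5 were alike at the lower end. They differed at the upper end: 13.4% of P7 cells held 5 or more members, against 1.92% of E17.5 cells, and 2 cells at P7 held all 9.

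**Figure D4:**
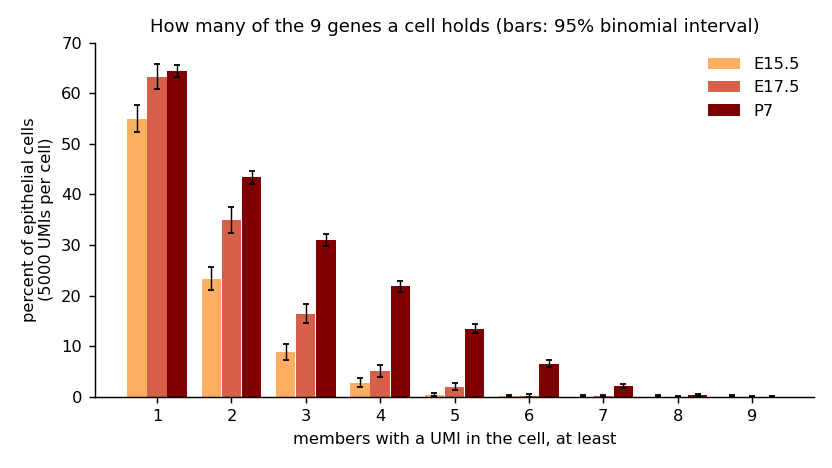
Percent of epithelial cells (thinned to 5000 UMIs) that hold a UMI of at least 1 to 9 members, one bar per stage with a whisker for the 95% binomial interval. Cells with at least 4 members are 2.77%, 5.08% and 21.8% in stage order.

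In levels, cells with Lgr5 exceeded cells without it by 2-fold or more in 5, 6 and 7 of the 8 other members in stage order. Of all genes with 100 or more UMIs, 3.13%, 2.62% and 9.19% did so. Of the other members, 4, 5 and 8 reach 100 UMIs, and 2, 3 and 7 of these were among the higher ones: Axin2 and Slc12a2 in the E15.5 library, Olfm4, Smoc2 and Slc12a2 in the E17.5 library. At P7 Olfm4 held 3439 CPM in cells with Lgr5 and 468 CPM in cells without, Ascl2 81.6 and 11.4 CPM, and Axin2 108 and 21.1 CPM. Lgr4, the exception, held 70.8 and 39.8 CPM. No member with a ratio was 2-fold lower, where 11.8%, 11.4% and 16.2% of genes were, and Cd44 had no ratio at E15.5, with 0 UMIs in cells with Lgr5 and 11 in the rest. Before birth some ratios rest on few UMIs: Olfm4 on 3 in cells with Lgr5 at E15.5 (log2 ratio 2.40, -0.04 to 4.24) and Ascl2 on 9 at E17.5 (1.80, 0.57–2.88). Split by Olfm4 instead, at P7, 7 of the 8 other members were at least 2-fold higher in cells with it and 0 were lower, where 12.6% and 13.7% of genes were.

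Cells with Lgr5 also held RNA of dividing cells more often, taken as a UMI of Mki67 or Top2a after thinning. The share was 78.8% of cells with Lgr5 and 48.2% of cells without in the E15.5 library, and 63.2% and 38.8% in the E17.5 library. At P7 it was 506 of 949 cells with Lgr5 (53.3%, 50.1–56.5) and 970 of 4852 cells without (18.9–21.1%). The intervals were apart at each stage. For Lgr4 the shares in cells with and without it were 51.4% and 48.6%, then 43.9% and 39.6%, then 32.8% and 23.7% in stage order, with intervals apart at P7 alone.

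The epithelium at P7 holds many absorptive cells, whose most abundant RNAs take up much of the total. Epithelial cells were therefore ranged by the sum of Apoa4, a lipoprotein, and Fabp2, a fatty acid carrier. Cells under 1000 CPM of these were 70.4%, 53.9% and 31.5% of epithelial cells in stage order. The ranges were chosen after the data had been seen and are not cell types. Over 4 ranges at P7, under 1000, to 5000, to 20000 and above, Olfm4 held 2613.5, 791, 61.1 and 18.2 CPM. The last value is close to the 17.9 CPM of neuronal cells. Lgr5 held 159, 26.7, 3.38 and 1.12 CPM over the same ranges, and Ascl2 held 66.2, 18.6, 2.37 and 0.694 CPM. Lgr4 had the smallest spread, with 60.9, 51.9, 32.3 and 26.2 CPM. All 9 genes were highest in the lowest range at P7. How many of all genes were highest in that range was not counted, so this is not a trait shown to be particular to the 9.

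Within the lowest range the stages can be set side by side with little Apoa4 and Fabp2 RNA in any of them. Other absorptive genes were not summed within this range, and cells with secretory RNA may fall in it. Lgr5 held 14.7, 32.9 and 159 CPM there in stage order, Olfm4 held 5.93, 111 and 2613.5 CPM, and Axin2 held 17.4, 15.0 and 85.3 CPM. For E17.5 over E15.5 the log2 ratio of Axin2 there was -0.22 (-0.48 to 0.05), an interval that takes in 0. That of Ascl2 was -0.49 (-0.79 to -0.20). In this range 5 members exceeded their E15.5 level by 2-fold or more at E17.5 (Lgr5, Olfm4, Smoc2, Slc12a2 and Cd44) and 0 were lower, where 4.17% of genes were higher and 2.83% lower. At P7, 7 members were at least 2-fold higher than at E17.5 and 0 were lower, where 4.61% of genes were higher and 4.31% lower. The exceptions were Lgr4, with a log2 ratio of 0.38 (0.24–0.52), and Sox9, with 0.61 (0.53–0.70). Over all epithelial cells Lgr4 had a ratio of -0.07 at this step, so its direction depends on which cells are summed. Smoc2, lower in epithelial than in mesenchymal cells by a log2 ratio of -1.68 at P7, came to -0.21 (-0.34 to -0.09) when its epithelial cells were limited to this range.

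**Figure D5:**
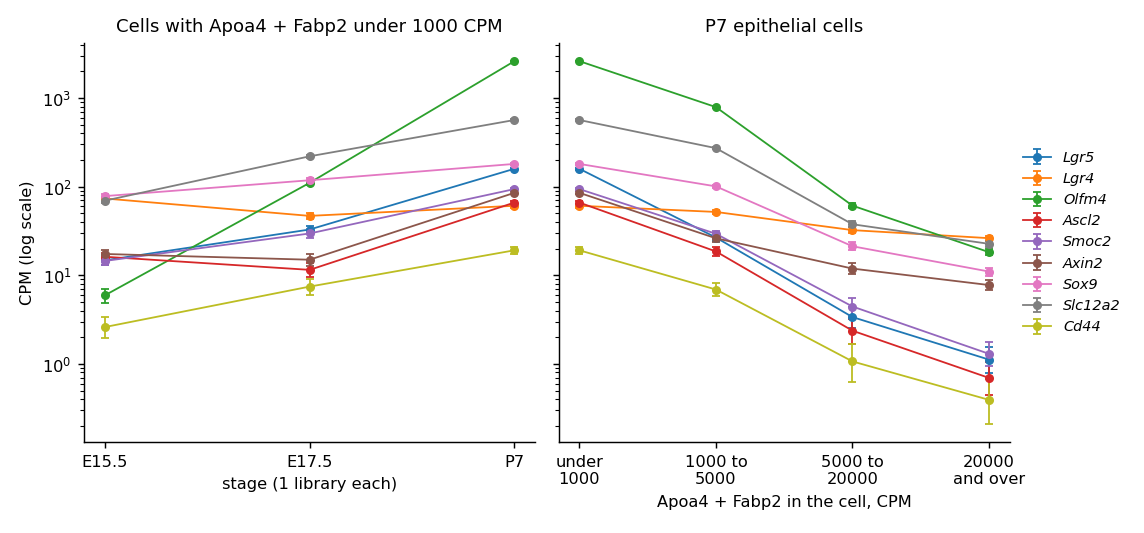
Left, CPM of the 9 genes (log scale) at the 3 stages in epithelial cells with under 1000 CPM of Apoa4 and Fabp2 in sum. Right, CPM at P7 over 4 ranges of that sum, with bars for the 95% Poisson interval: Olfm4 goes through 2613.5, 791, 61.1 and 18.2 CPM, and Lgr4 through 60.9, 51.9, 32.3 and 26.2.

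Cells with secretory RNA, gated on marker UMIs and free to overlap, differed from the epithelium as a whole in some members. How far the gates overlap was not counted, and a gate stands for marker RNA, not for a cell type. In cells with 10 or more UMIs of the goblet mucin Muc2 (9, 138 and 531 cells), Sox9 held 107, 201 and 170 CPM in stage order. In cells with 20 or more UMIs of the Paneth products Lyz1 and Defa24 (27, 141 and 574 cells) it held 206, 230 and 194 CPM, and Slc12a2 held 184, 246 and 353 CPM. Over all epithelial cells Sox9 held 62.8, 76.9 and 79.2 CPM. Lgr5 held 3.99 CPM in the goblet gate and 1.75 CPM in the Paneth gate of E17.5, on 7 and 3 UMIs, against 18.5 CPM over all epithelial cells. At P7 it held 32.9 CPM in the goblet gate and 57.9 CPM in the Paneth gate, against 51.9 CPM over all epithelial cells. Olfm4 held 414 and 594 CPM in these gates at P7, lower than its 922 CPM over all epithelial cells. Cd44 stood out in cells with 5 or more UMIs of the hormone granule genes Chga and Chgb (36, 88 and 209 cells), with 16.1, 27.6 and 56.6 CPM on 8, 23 and 120 UMIs, against 1.95, 4.85 and 7.17 CPM over all epithelial cells. Neuronal cells also use these granule genes, and at P7 59.2% of them passed that gate, against 0 of 169 for the goblet and Paneth gates. They held 2.69 CPM of Cd44 at P7, on 6 UMIs.

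The genes most like Lgr5 were taken as the 10 outside the 9 members with the largest ratio between thinned cells with and without it, among genes with 100 or more UMIs. At P7 these were Sp5 (35.8 CPM in cells with Lgr5 and 3.30 CPM without), Pcdh8, Krt15, Ccdc3, Mex3a, Arl14, Rgcc, Igfbp4, Gkn3 and Clca3b, with ratios from 10.9-fold to 6.19-fold. The same rule for Olfm4 at P7 gave Gkn3 (56.6 CPM in cells with Olfm4 and 1.04 CPM without), Pcdh8, Clca3b, Sp5, Sfrp5, Igfbp4, Cdc6, Cdca7, Rgcc and Lsmem1. In the E17.5 library Rgcc led for Lgr5 (94.7 CPM in cells with Lgr5 and 17.3 CPM without), followed by Myb, Mecom, Rad51ap1, Metrn, Chek1, Fam111a, Wdr76, Dna2 and E2f3. In the E15.5 library the rule gave Hist1h4h, Etv6, Myb, Filip1l, Mrps2, Exo1, Mnd1, Hist1h3c, Ncapg2 and Hist1h1a, on 13 to 37 UMIs each in the 52 cells with Lgr5. Histone genes of this kind have near-identical copies, and their counts are uncertain. The likeness is across cells of 1 library, which share depth and free RNA.

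Of the listed WNT genes, 14 were measured at P7 and 10 of them were at least 2-fold higher in cells with Lgr5 than in cells without. Of the 9 with 100 or more UMIs 7 were, where 9.19% of all such genes were. They included Rnf43 (74.6 CPM with and 21.8 CPM without), Ephb3 (19.4 and 4.37 CPM) and Myc (35.8 and 10.3 CPM), and the list median was 1.75 on the log2 scale. Notum and Apcdd1 were lower, on 5 and 2 UMIs in cells with Lgr5, with log2 ratios of -1.43 (-3.10 to -0.14) and -3.02 (-6.09 to -1.12). Of 10 other crypt genes 9 were higher, such as Cdca7 (236 CPM with and 39.7 CPM without), and Bmi1 was the exception (15.8 and 11.3 CPM). Of 10 cell cycle genes 9 were higher, and of 8 absorptive genes 7 were lower, where 16.2% of all genes were. The receptor gene Notch1 (55.6 CPM with and 13.1 CPM without) and the Notch target Hes1 (129 and 55.9 CPM) were higher, while Atoh1, the factor of secretory fate, held 11.8 and 17.0 CPM. The Paneth gene Lyz1 was higher (228 CPM with and 58.7 CPM without), whereas Ang4, another Paneth gene, was lower (29.7 and 97.1 CPM). Before birth 5 of 12 and 2 of 11 measured WNT genes were at least 2-fold higher in cells with Lgr5, while Nkd1, Notum and Ephb3 in the E15.5 library and Ephb3 in the E17.5 library had 0 UMIs in cells with Lgr5 against 6 to 13 in the rest. Of the 6 with 100 or more UMIs at each of these stages, 4 and 1 were higher and 0 lower, where 3.13% and 2.62% of all such genes were higher.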

How the data were processed

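The authors deposited 1 matrix per library of UMI counts, which are whole numbers and not normalized. The submitters' processing notes name Cell Ranger 7.2.0 and the builds mm10 and GRCm38. Its settings, and whether counting used strand, are not given in the sources used here. By the labels' protocols, the joined epithelial and mesenchymal fractions were sorted for viable cells with Epcam, or lacking Epcam, CD31 and CD45. This sort sets cell shares and removes most endothelial and blood cells. The deposited barcode lists are identical in the 3 libraries, so barcodes were not used and sharing between libraries could not be counted. Libraries held 93501273, 94023160 and 116038115 UMIs at E15.5, E17.5 and P7.

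Scrublet (scanpy 1.11.5, expected rate 6%) marked 243, 453 and 389 cells as doublets, and these were removed. Mesenchymal cells also had under 3 UMIs of neural, endothelial and immune markers in sum, muscle-type cells had 10 or more UMIs of Myh11, Actg2, Cnn1 and Des, and neuronal cells had 5 or more UMIs of neuronal markers (Elavl4, Tubb3 and 1 not reported here) and under 10 of collagen. UMIs were summed per group and scaled to CPM. Cells were thinned without replacement to 5000 UMIs with a fixed seed, and 22, 55 and 189 shallower epithelial cells were left out of shares. Levels carry exact Poisson intervals, shares Clopper-Pearson intervals and ratios conditional binomial intervals, all at 95%. These cover counting error only, and leave out how animals, dissections or sorts differ. A ratio was called at 2-fold, and the background counts all genes with a mean of at least 5 CPM in the pair, or 100 UMIs in thinned cells. Scripts ran in Python 3.11.15 (scipy 1.17.1, numpy 2.4.6, matplotlib 3.10.9). The calls were also run on simulated Poisson counts, which hold counting error alone and say nothing of how animals or sorts differ.

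All 9 members are named. Other genes are named from fixed lists or as the 10 non-member genes with the highest ratio between cells with and without Lgr5 (each stage) or Olfm4 (P7), among genes with at least 100 UMIs. The members and lists were chosen with earlier results of these data known. Alternatives were other Epcam thresholds, no doublet removal, collagen or acinar cells left out, other scalings, a 1.5-fold mark, other thinning and a limit on Apoa4 and Fabp2 RNA.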

Additional observations from a re-analysis of the deposited data

Results flagged for a closer look

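In the E17.5 library, 35 of the 36 Olfm4 UMIs found in neuronal cells lay in 1 cell. That cell had 16026 UMIs, 16 of them from neuronal markers, and 0 UMIs of Epcam, of Lgr5 and of the 6 epithelial markers. It was singled out because Olfm4 appeared there far above its level in the other cells of a type that was taken to lack it. Without it the neuronal cells of that library hold 1 Olfm4 UMI. What the cell is was not tested.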

How the results depend on the processing

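At a 1.5-fold mark, 5 members were higher at E17.5 than at E15.5 and 1 was lower, against 3 and 0 at 2-fold. The share of all genes past 1.5-fold was not counted, so these 2 counts cannot be set against a background. When only epithelial cells under 1000 CPM of Apoa4 and Fabp2 were summed, an alternative chosen after seeing the data, 5 members were higher at E17.5 than at E15.5 and 7 were higher at P7 than at E17.5, against 3 and 4 over all epithelial cells. The share of Lgr5 cells that also held Olfm4 was 35.3% (24.1–47.8) at E17.5 and 88.4% at P7 after thinning to 3000 UMIs, against 47.4% and 91.5% at 5000 UMIs. Without thinning it was 16.3% at E15.5, against 5.77%, since deeper cells show more genes. With cells of 1 or more Epcam UMIs, the log2 ratio of Cd44 for E17.5 over E15.5 was 0.70 and that of Smoc2 for P7 over E17.5 was 0.45, against 1.31 and 0.95. No called ratio of a single member changed direction, but many values moved. Of 45 ratios, 15 left their main counting interval with 1 or more Epcam UMIs and 8 with scaling by the median ratio. With cells under 1000 CPM of Apoa4 and Fabp2, 32 of 45 did. With no doublet removal 4 did, and with collagen cells left out 2 did. Uncalled ratios changed sign for Lgr4 in P7 over E17.5 (1 or more Epcam UMIs, and the low absorptive range) and for Slc12a2 in epithelial over mesenchymal cells at E15.5 (scaling by the median ratio, and the low absorptive range). The cause was not tested. No paired analysis was possible because each stage is 1 library, and no replicate could be left out. Depth limits Cd44 in the epithelium and Lgr5, Olfm4 and Ascl2 in the mesenchyme, where counts before birth were 13 UMIs or fewer.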
